A study of Mus musculus with 21 samples.

Results

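Elastic fibre genes code for elastin, the microfibrils that elastin is laid down on, the fibulins that link the parts, and the enzymes that cross-link elastin. They were followed in cultured smooth muscle cells of the mouse aorta given an antibody to the lymphotoxin beta receptor (LTBR), tumour necrosis factor (TNF), or both. The members were 10 genes chosen by symbol, namely Eln, Fbn1, Fbln1, Fbln2, Fbln5, Lox, Loxl1, Mfap2, Mfap4 and Mfap5. Of these, 9 had a probe set annotated with their symbol alone, giving 19 probe sets among the 45101 of the array, and Fbn1 is not analysed here. The test took in probe sets brighter than the median of their array on 3 or more of the 15 arrays at 24 h. This held for 17 member probe sets of the 25110 tested in all. The 2 left out were dim: Fbln1 1422540_at passed the array median on 2 of 15 arrays, and Mfap2 1447833_x_at on 0 of 15.

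The cells came from aortas of male C57BL/6J mice aged 10 to 12 weeks and were grown in DMEM/F12 medium with 10% serum and fed 24 h before the stimuli. At 24 h the groups were TNF at 1 ng/ml with antibody to LTBR at 10 µg/ml (3 arrays), TNF alone (4 arrays), the antibody alone (4 arrays) and PBS, in which both stimuli were dissolved (4 arrays). At 2 h and at 6 h there was 1 array each of TNF, of the antibody and of PBS, and none of the combination. The study's title concerns joint signalling through TNFR1 and LTBR in aortic smooth muscle cells. The arrays carry a number in their labels, 0 to 3, and arrays of the same number were treated as a set. The early arrays are all numbered 0, and the combination has no array with that number.

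Elastin is secreted as soluble tropoelastin, which gathers on a scaffold of fibrillin microfibrils and is made insoluble when lysyl oxidases join its lysines. In the aorta, smooth muscle cells make the elastic lamellae that let the wall stretch and recoil. Most elastin is laid down in development and early life, and it turns over slowly.

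The response to both agonists was checked with Nfkb2 and Relb, NF-kB family genes that both receptors are known to induce. Nfkb2 rose by 2.79 in the combination, 1.49 with TNF and 2.31 with the antibody (log2 difference from PBS), and Relb by 2.06, 1.43 and 0.84, all past the test used for every gene here (limma, Benjamini-Hochberg adjusted p under 0.05 over all probe sets tested). Of 8 smooth muscle markers 6 lay above the array median on every array at 24 h. The summed signal over all 8 was 30204 to 39203 in the combination and 36957 to 47307 in PBS. Arrays numbered 0 stood apart in endothelial markers. Their sum over 8 genes was 14353 to 17906 on the 9 arrays numbered 0, against 723 to 2120 on the 12 numbered 1 to 3. The summed macrophage markers were lower on the arrays numbered 0, at 1030 to 1243 against 1388 to 4266. So was the sum of the other genes of elastic fibre assembly described below, at 46446.3 to 51602.9 against 52514.5 to 69434.8. The 4 members called below were also called without the arrays numbered 0, with log2 differences in the combination of -0.31 for Loxl1, -0.20 for Eln, -0.15 for Fbln5 and -0.20 for Mfap5.

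At 24 h the combination lowered 4 of the 17 member probe sets by small amounts, and raised none. They were the highest-signal probe sets of Loxl1, Eln, Fbln5 and Mfap5, and the falls were of 0.13 to 0.30 on the log2 scale. That is 23.5% of the members tested, where 15% of all probe sets were called in either direction, 7.05% higher and 8% lower. The log2 difference from PBS was negative for 13 of the 17 and positive for 4, with a median of -0.20 (range -0.31 to 0.12), beside a median of -0.01 over all probe sets. The 17 probe sets belong to 9 genes, so several genes are counted more than once. With TNF alone and with the antibody alone 0 passed, by limma (3 and 1 at an unadjusted p under 0.05). Here and below, differences are of log2(signal + 10.2), with the array number as a block, and are given with their standard error.

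Markers of cell type moved in the same comparison. Of 8 smooth muscle markers 5 fell in the combination, with a median log2 difference of -0.42, among them Cnn1 (-1.14), Smtn (-0.71) and Tagln (-0.31). Of 4 adventitial fibroblast markers tested 2 rose, Pdgfra (0.64) and Dpt (1.74), and the summed signal of that list was 7139 to 11900 in the combination and 6330 to 9185 in PBS. By limma 0 of 7 endothelial, 0 of 5 macrophage and 0 of 1 adipocyte markers passed (1, 1 and 0 at an unadjusted p under 0.05), and no lymphocyte marker was bright enough to be tested. The single agonists moved these markers too. Of the 8 smooth muscle markers 3 fell with TNF alone (median -0.25) and 2 with the antibody alone (median -0.21). Of the 4 adventitial fibroblast markers TNF alone lowered 1 and the antibody alone raised 1. The calls of these markers were not checked under other settings of the fit or with single arrays left out. The part of these markers in the members' falls was not tested. RNA of a whole culture cannot tell fewer cells of a type from less RNA in each cell.

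Loxl1, a lysyl oxidase that binds tropoelastin and is needed to keep elastic fibres renewed in adult mice, had the smallest adjusted p of the members. Its probe set 1451978_at had signals of 4755, 7580 and 6996 with TNF plus anti-LTBR on arrays 1, 2 and 3. The signals in PBS on arrays 0, 1, 2 and 3 were 6392, 5827, 9743 and 8427. The 2 groups overlapped, because arrays 0 and 1 were dimmer than arrays 2 and 3 in each treatment, but within every number the treated array was the lower. The treated signal was 0.816, 0.778 and 0.83 of its PBS partner on arrays 1, 2 and 3. The log2 difference was -0.30 ± 0.06 (95% interval -0.43 to -0.17, adjusted p = 0.0045). TNF alone gave 6030, 5409, 7164 and 7990 on arrays 0 to 3, each below its PBS partner, and a difference of -0.18 ± 0.06 that did not pass (adjusted p = 0.107). The antibody alone gave 5727, 5348, 8077 and 8578, with 3 of the 4 below their partners, and a difference of -0.13 ± 0.06 (adjusted p = 0.259). The second Loxl1 probe set, 1436063_at, differed by -0.20 ± 0.08 in the combination and did not pass (adjusted p = 0.14).

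Eln, elastin itself, was bright on every array. Probe set 1420855_at had signals of 12331, 13927 and 15120 with TNF plus anti-LTBR, against 14690, 15933, 15614 and 15957 in PBS. Array 1 of the combination was the lowest of all 15, and array 3 of the combination lay above the lowest PBS array. The difference was -0.18 ± 0.05 (95% interval -0.29 to -0.08, adjusted p = 0.022), and the treated array was the lower in 3 of 3 pairs. TNF alone gave 15562, 15128, 15477 and 15612, and the antibody alone 15412, 14868, 14802 and 15017. Differences from PBS were -0.01 ± 0.04 with TNF and -0.05 ± 0.04 with the antibody, and neither passed. The combination arrays all lay below the TNF arrays, by -0.17 ± 0.05, which missed the threshold (adjusted p = 0.064). The second Eln probe set, 1420854_at, had signals of 4185, 9024 and 9804 in the combination and 8470, 6699, 11487 and 10466 in PBS, and its difference of -0.31 ± 0.13 did not pass (adjusted p = 0.14).

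**Figure D1:**
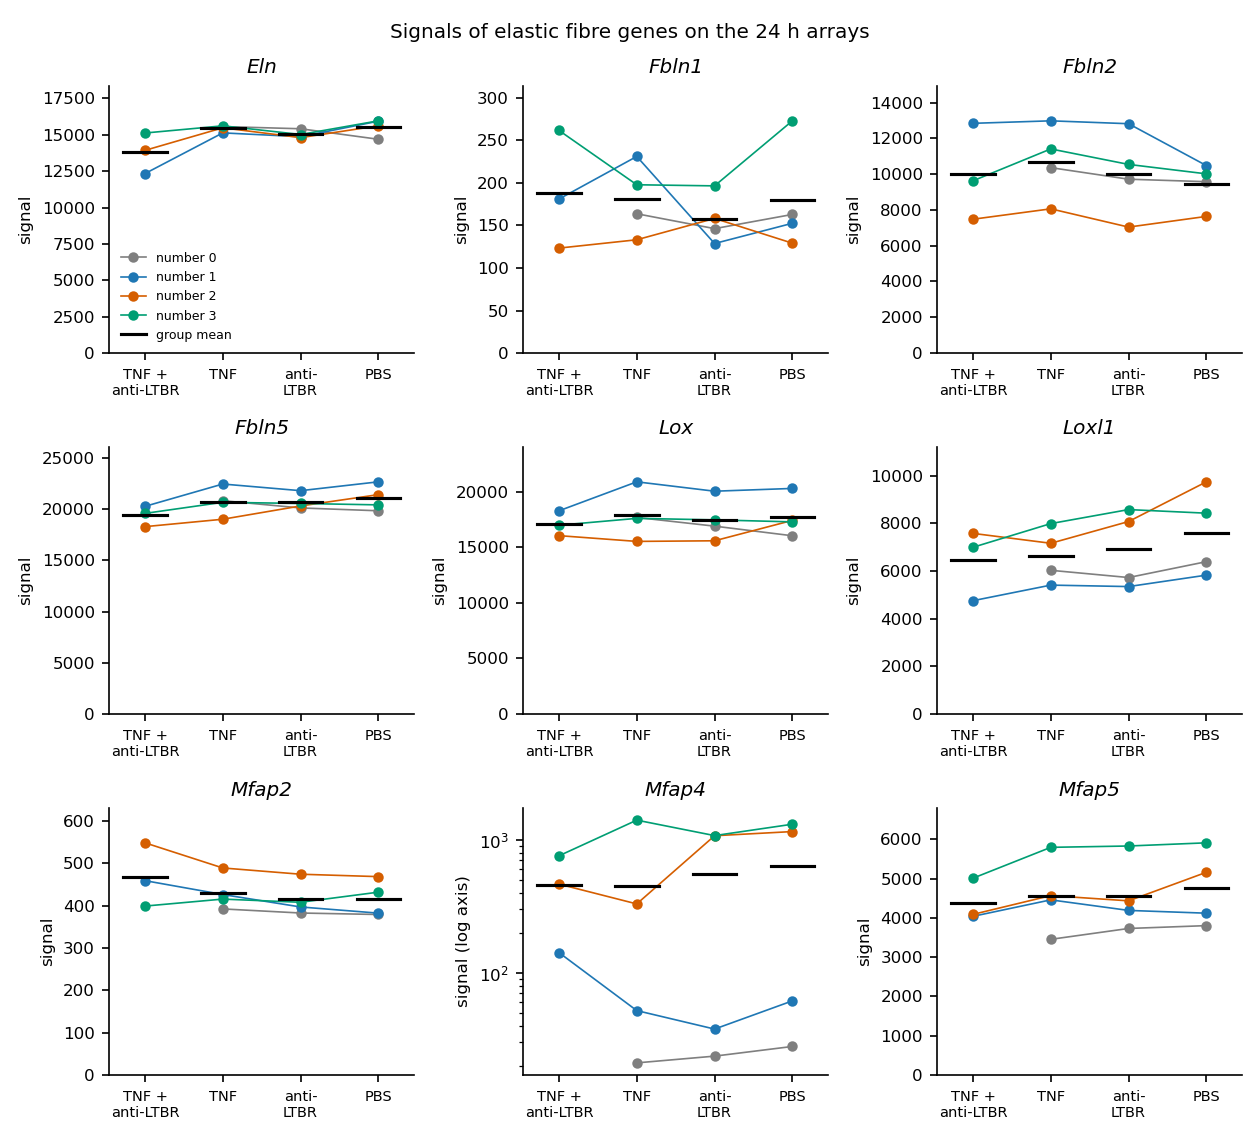
Signal of the highest-mean probe set of each of the 9 genes at 24 h, by treatment (linear axes, logarithmic for Mfap4). Coloured lines join arrays of one number, 0 to 3, and black bars are group means. For Loxl1, Eln, Fbln5 and Mfap5 each line of numbers 1 to 3 is lower in TNF plus anti-LTBR than in PBS, while for Mfap4 the numbers lie far apart in all 4 groups.

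Fbln5, a fibulin that binds tropoelastin and integrins and without which mice form disorganised elastic fibres, was close to the top of the range of the arrays. The signals of probe set 1416164_at were 20259, 18279 and 19572 with TNF plus anti-LTBR and 19827, 22651, 21402 and 20403 in PBS. Its PBS signal on array 2 was the highest of that whole array, and the brightest probe sets of the 21 arrays read 20140 to 26348. Each combination array was the lower of its pair, at 0.894, 0.854 and 0.959 of the PBS signal, though the groups overlapped through PBS array 0. The difference was -0.13 ± 0.04 (95% interval -0.21 to -0.05, adjusted p = 0.026). With TNF it was -0.02 ± 0.03 and with the antibody -0.03 ± 0.03, and neither passed. The dimmer probe set 1446377_at differed by -0.21 ± 0.10 in the combination and did not pass (adjusted p = 0.21).

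The promoter of Fbln5 is shown because Fbln5 was the one called member with an entry in the RefSeq promoter table, which holds 5 of the 10 members. The promoter of Mfap2, a member that was not called and whose difference lay on the other side of 0, is set beside it. Each is the 250 bases before the outermost start site, 5′ to 3′ on the gene's strand, in build GRCm38.p6. Capitals mark matches on either strand to the GC box GGGCGG, to the TATA box TATAAA, to the CCAAT box or to the NF-kB motif kappa B.
Fbln5, chr12:101819120-101819369, minus strand: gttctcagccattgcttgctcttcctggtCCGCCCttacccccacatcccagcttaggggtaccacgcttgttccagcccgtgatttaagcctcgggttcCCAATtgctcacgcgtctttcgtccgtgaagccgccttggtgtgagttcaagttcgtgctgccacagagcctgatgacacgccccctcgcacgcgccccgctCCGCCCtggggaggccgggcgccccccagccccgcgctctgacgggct
Mfap2, chr4:141010174-141010423, plus strand: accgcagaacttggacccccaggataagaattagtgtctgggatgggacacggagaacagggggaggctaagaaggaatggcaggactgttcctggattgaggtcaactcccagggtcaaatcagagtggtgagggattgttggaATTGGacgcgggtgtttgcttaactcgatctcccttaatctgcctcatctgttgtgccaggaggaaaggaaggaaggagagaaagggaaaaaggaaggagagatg
The Fbln5 window held GGGCGG at 221 to 216 and at 48 to 43 bases before the start, on the reverse strand, and CCAAT at 150 to 146 bases. The Mfap2 window held CCAAT on the reverse strand at 105 to 101 bases. Neither window had a match to TATAAA, to kappa B or to the CArG motif, and no motif matches overlapped. Over 32536 distinct upstream windows of that length, GGGCGG was present in 33%, CCAAT in 33.8%, TATAAA in 12.3%, kappa B in 7.28% and CArG in 1.48%.

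Mfap5, a small glycoprotein of fibrillin microfibrils, was the fourth gene called. The signals of probe set 1418454_at were 4041, 4091 and 5012 with TNF plus anti-LTBR, against 3804, 4121, 5163 and 5913 in PBS. The treated array was lower in 3 of 3 pairs, by the least on array 1, and the groups overlapped. The difference was -0.21 ± 0.06 (95% interval -0.33 to -0.08, adjusted p = 0.025). The second probe set, 1449082_at, gave nearly the same size, -0.21 ± 0.07, and missed the threshold (adjusted p = 0.061). With either single agonist the difference of 1418454_at was -0.06 ± 0.05 and did not pass.

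The calls depended on single arrays and on the settings of the fit. Eln was no longer called without PBS array 1 (-0.14, adjusted p = 0.0977), PBS array 2 (-0.18, 0.0508), combination array 1 (-0.11, 0.152) or combination array 2 (-0.19, 0.0579). Fbln5 was no longer called without PBS array 1 (-0.13, adjusted p = 0.0793), PBS array 2 (-0.10, 0.0842), combination array 1 (-0.12, 0.109) or combination array 2 (-0.12, 0.122). Mfap5 was no longer called without PBS array 2 (-0.16, adjusted p = 0.0893), PBS array 3 (-0.21, 0.0549), combination array 2 (-0.19, 0.114) or combination array 3 (-0.18, 0.119). Loxl1 stayed called whichever of the 15 arrays was left out. With the array number as a random effect in place of a fixed block, Loxl1 (-0.29, adjusted p = 0.0829) and Mfap5 (-0.19, 0.221) were no longer called, while Eln (-0.18, 0.0229) and Fbln5 (-0.13, 0.0466) were. With quantile normalization it was Eln (-0.11, adjusted p = 0.0778) and Fbln5 (-0.06, 0.23) that were lost, and Loxl1 and Mfap5 that were called. Without the array number as a block none of the 4 was called, and their differences were -0.23 for Loxl1 (adjusted p = 0.859), -0.18 for Eln (0.236), -0.12 for Fbln5 (0.584) and -0.10 for Mfap5 (0.95).

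**Figure D2:**
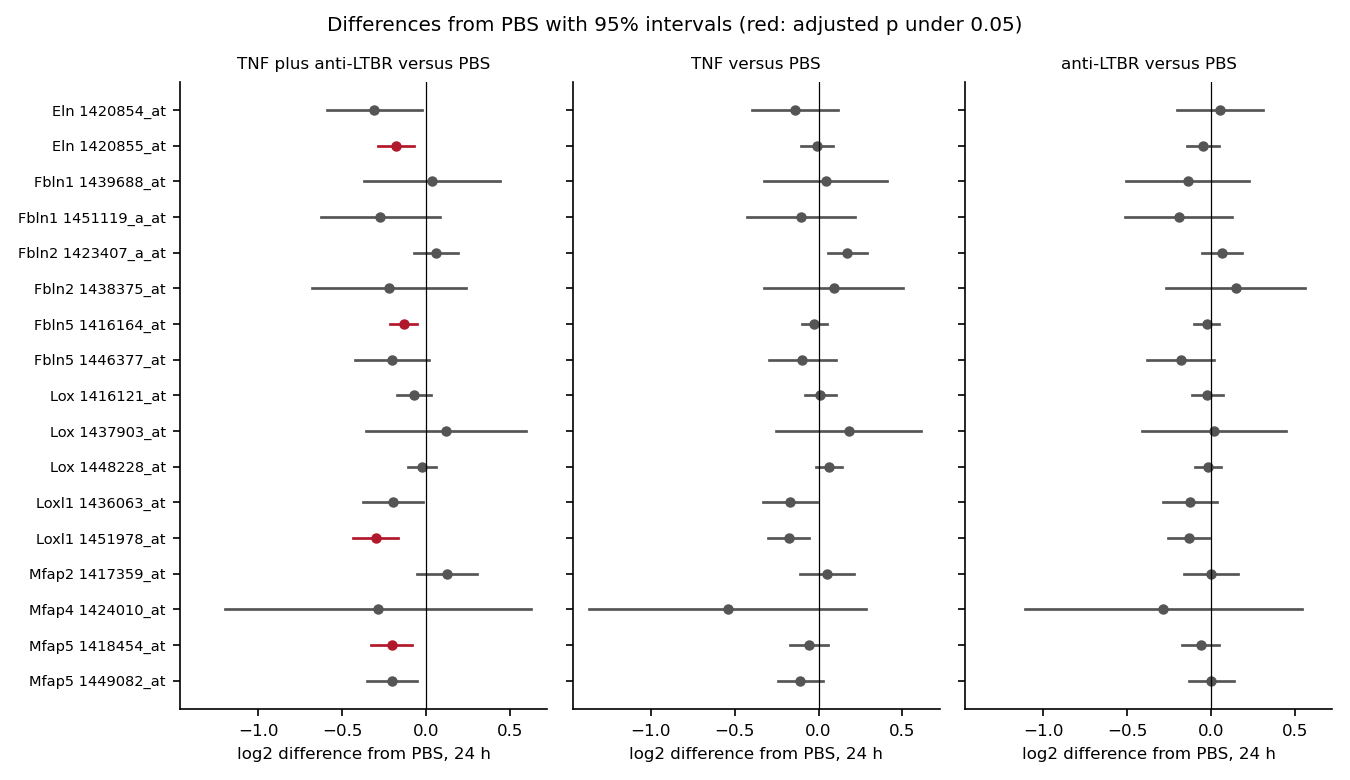
Log2 difference from PBS at 24 h of the 17 member probe sets tested, for TNF plus anti-LTBR, TNF and anti-LTBR, with bars for the 95% interval and red for an adjusted p under 0.05. The 4 red points, one each for Loxl1, Eln, Fbln5 and Mfap5, are all in the combination, and the interval of Mfap4 is the widest.

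Lox, the lysyl oxidase whose loss in mice leads to aortic rupture, did not pass in any comparison. Probe set 1416121_at had signals of 18282, 16047 and 16985 with TNF plus anti-LTBR and 16036, 20294, 17418 and 17286 in PBS. The combination was lower in 3 of 3 pairs, by the most on array 1, and the groups overlapped. Its difference was -0.07 ± 0.05 (95% interval -0.17 to 0.03, adjusted p = 0.36), so that a fall of the size seen for Loxl1 lies outside the interval. On every array its signal was above at least 99.78% of the probe sets, close to the top of the range, as for Fbln5. Whether the arrays could show such a fall at that level was not tested. The second bright probe set, 1448228_at, differed by -0.03 ± 0.04 (adjusted p = 0.76), and the dim 1437903_at by 0.12 ± 0.22 (adjusted p = 0.80).

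The other fibulins did not pass either. Fbln2, a fibulin of the vessel wall that binds fibrillin and elastin, had signals of 12844, 7482 and 9630 with TNF plus anti-LTBR on probe set 1423407_a_at, against 9580, 10482, 7639 and 10019 in PBS. The pairs went in different directions, and the difference was 0.06 ± 0.06 (adjusted p = 0.62). With TNF alone the signals were 10366, 12984, 8063 and 11412, higher than PBS in 4 of 4 pairs, by 0.17 ± 0.06, which did not pass (adjusted p = 0.112). Fbln2 was the one member with an unadjusted p under 0.05 in the test of the interaction, with a log2 interaction of -0.18 ± 0.08 (unadjusted p = 0.0445, adjusted p = 0.541). Its dim probe set 1438375_at differed by -0.22 ± 0.21 in the combination. Fbln1, which binds fibronectin and elastin, was dim on all its probe sets, and the 2 that were tested differed by 0.03 ± 0.19 and -0.27 ± 0.16 in the combination.

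Of the microfibril-associated proteins, Mfap2 had the largest positive difference among the members in the combination. Probe set 1417359_at had signals of 459, 549 and 399 with TNF plus anti-LTBR, against 379, 383, 469 and 432 in PBS. Arrays 1 and 2 lay above their PBS partners and array 3 below, and the difference of 0.12 ± 0.08 did not pass (adjusted p = 0.38).

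Mfap4, a protein that binds elastin and collagen, differed far more between array numbers than between treatments. With TNF plus anti-LTBR its signals were 142, 463 and 756 on arrays 1, 2 and 3. With TNF they were 21.0, 51.9, 329 and 1402 on arrays 0 to 3, with the antibody 23.6, 37.7, 1070 and 1072, and in PBS 27.9, 61.4, 1150 and 1306. Arrays 2 and 3 were the bright ones in every group, and array 0 lay below the array median in each group that has one. The mean over arrays of one number was 24.2, 73.2, 753 and 1134 for numbers 0 to 3, a range of 46.9-fold. The differences from PBS were -0.29 ± 0.42 in the combination, -0.54 ± 0.38 with TNF and -0.28 ± 0.38 with the antibody, and none passed.

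The spread of every member was described by the share of its sum of squares at 24 h that lay between array numbers and between treatments. Each share was taken with the other factor already fitted. The numbers are not balanced over the treatments, so the shares need not add up to the whole. Over all tested probe sets the median share was 54.4% between numbers and 14.6% between treatments. Mfap4 had 90.9% between numbers and 0.87% between treatments. Both probe sets of Mfap5 (92.3% and 94.7%), both of Loxl1 (86.2% and 93.8%) and the bright one of Fbln2 (88.8%) also lay mainly between numbers. Eln 1420855_at was the reverse, with 13.4% between numbers and 52.7% between treatments. The second Eln probe set, 1420854_at, was not, with 75.4% between numbers and 9.43% between treatments. Fbln5 1416164_at had 50.8% and 33.5%, and its dimmer probe set 1446377_at 82.2% and 7.11%. What the numbers stand for is not given in the labels, and its part in these shares was not tested.

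**Figure D3:**
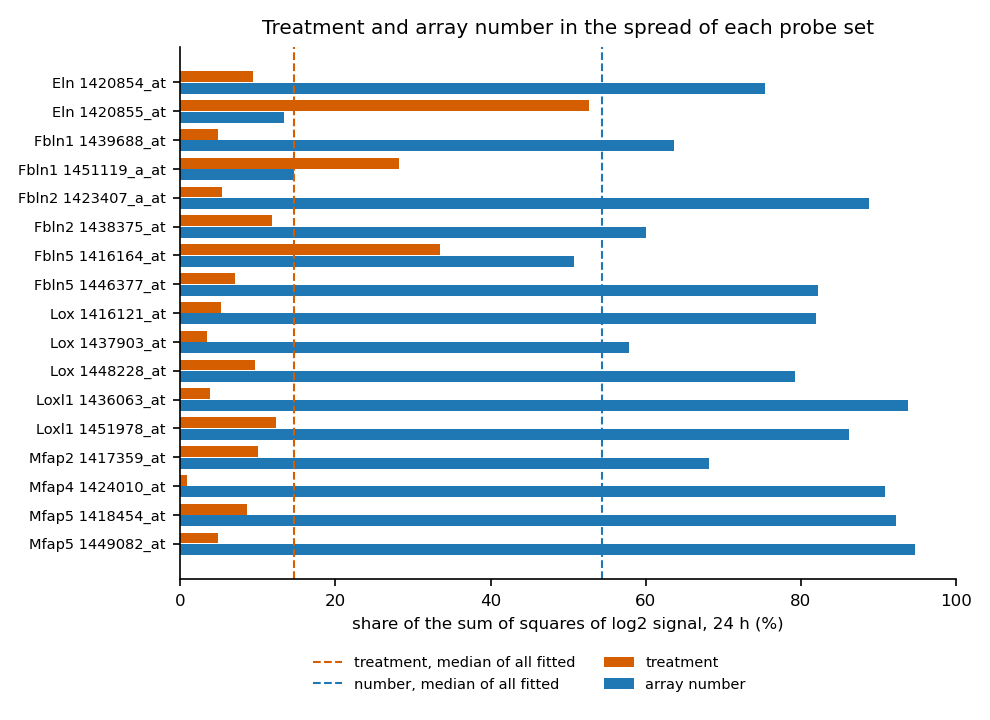
Share of the sum of squares at 24 h that lay between treatments and between array numbers, in percent, for the member probe sets, with dashed lines at the medians of all tested probe sets (14.6% and 54.4%). Eln 1420855_at has the tallest treatment bar, at 52.7%, and Mfap5, Mfap4 and Loxl1 have number bars of 86.2% or more. The shares of a probe set need not add up to the whole.

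The combination was also set against each single agonist. No member passed against TNF, where 4 of 17 had an unadjusted p under 0.05 and the median difference was -0.11, and 4.7% of all probe sets were called. No member passed against the antibody, where 6 had an unadjusted p under 0.05 and the median was -0.08, and 3.82% of all probe sets were called. These comparisons share the combination arrays with the one against PBS. TNF against the antibody gave 0 calls and 1 unadjusted p under 0.05 (0.585% of all probe sets called), and the interaction gave 0 calls and 1 unadjusted p under 0.05 (0.0239%).

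The single agonists against PBS gave 0 calls each among the 17 probe sets, by limma. TNF had 3 unadjusted p under 0.05, a median of -0.02 and a background of 4.11% called. The antibody had 1, a median of -0.03 and a background of 3.17%. For TNF the 95% interval lay within 1.5-fold either way for 15 of the 17 probe sets, and for the antibody for 16. For the combination 12 of the 17 intervals lay within 1.5-fold. Scaling the arrays to equal medians turned the members' median for the antibody to 0.06, and all probe sets' to 0.07, and that for TNF to 0.02, so no direction is read from these medians. Under that scaling 89.4% of all calls for the antibody and 75.7% of those for TNF were higher, against 59.6% and 56% as deposited.

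Other genes of elastic fibre assembly split in the combination. Of 16 tested genes among 19 listed, 2 rose and 5 fell, with a median log2 difference of -0.06. Over all probe sets tested, 7.05% were called higher and 8% lower in this comparison. The same shares apply beside the counts of the related lists that follow. Ltbp2, a latent TGF-beta binding protein that associates with microfibrils, rose. Its signals were 8454, 7864 and 6179 with TNF plus anti-LTBR, against 4392, 3938, 6650 and 3727 in PBS, and the groups overlapped only through PBS array 2. The treated array was the higher in 3 of 3 pairs, and the difference was 0.70 ± 0.11 (adjusted p = 5.84e-04). Ltbp2 also rose with TNF alone, by 0.44 ± 0.10 (adjusted p = 0.0243), a call lost in 6 of 15 single omissions, without the arrays numbered 0, without the variance trend and without the block.

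Of the genes of that list that fell, Vcan, the large proteoglycan versican, had the largest difference. Its signals were 371, 234 and 162 with TNF plus anti-LTBR, against 423, 526, 482 and 433 in PBS. Every combination array lay below every PBS array, and the difference was -0.92 ± 0.13 (adjusted p = 3.18e-04). It fell by 0.68 with TNF alone as well (adjusted p = 0.0057). Ltbp1, another latent TGF-beta binding protein, was 8774, 6852 and 7420 in the combination, against 4450, 10663, 8007 and 9550 in PBS. It was lower in 3 of 3 pairs and fell by 0.29 (SE 0.04, adjusted p = 1.51e-04), and with TNF and with the antibody it had differences of -0.14 and -0.19 that passed as well. The call with TNF was lost in 11 of 15 single omissions and under 6 of 11 other settings, and that with the antibody in 1 omission and under 5 settings, down to -0.10 with arrays scaled to equal medians. The dimmer probe sets of Ltbp1 did not pass with either single agonist. Efemp1, a fibulin of the same family as Fbln5, was lower in 3 of 3 pairs and fell by 0.45 (SE 0.07, adjusted p = 6.3e-04). The other genes called in the combination, given after their values were seen, were Emilin1, which rose by 0.33, and Adamts10 and Fbln7, which fell by 0.44 and 0.75. A second probe set of Emilin1 differed by 0.14 in the combination and did not pass (adjusted p = 0.382). Adamts10 also fell with TNF, by 0.42. Over single omissions the call in the combination was lost 4 of 15 times for Emilin1, 2 for Adamts10 and 4 for Fbln7, whose difference was -0.47 without combination array 2, and the call of Adamts10 with TNF was lost 5 times. With the array number as a random effect Ltbp2 and Vcan were still called in the combination, but Ltbp1 (adjusted p = 0.36), Efemp1 (0.452), Emilin1 (0.0505), Adamts10 (0.0711) and Fbln7 (0.257) were not. In the whole list, TNF raised 1 gene and lowered 3, and the antibody lowered 1.

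In a list of cross-linking and related genes outside the members, 2 of 7 tested fell and none rose in the combination. Loxl3, a further lysyl oxidase, was 2534, 2242 and 3278 in the combination, against 2578, 3026, 3060 and 4516 in PBS. It was lower in 3 of 3 pairs and fell by 0.35 (SE 0.07, adjusted p = 0.00217). It fell by 0.27 with TNF (adjusted p = 0.0215), a call lost in 5 of 15 single omissions and under 4 of 11 other settings. Pcolce, which speeds the removal of the C-terminal propeptide of procollagen, fell by 0.25 (SE 0.05, adjusted p = 0.00172), and was not called with the array number as a random effect (adjusted p = 0.219). A second Pcolce probe set differed by -0.18 in the combination and did not pass (adjusted p = 0.155). With the antibody 0 of the 7 passed by limma, and 1 had an unadjusted p under 0.05.

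Proteases that can cut elastin or the surrounding matrix showed 3 rises and no fall among 7 tested in the combination. With each single agonist 0 passed by limma and 1 had an unadjusted p under 0.05. Mmp9, a gelatinase, was 277, 136 and 144 in the combination, against 115, 39.5, 25.3 and 115 in PBS. The groups did not overlap, and it was called higher (adjusted p = 0.0149). All 4 PBS values lay below the array median, and the log2 difference depended on the value added to the signals, at 1.53 with 10.2 and 0.81 with 100, so no fold is read from it. Mmp14, a membrane-bound protease, rose by 0.41 ± 0.10 (adjusted p = 0.00901), and Mmp3, a stromelysin, by 0.76 ± 0.23 (adjusted p = 0.0412) with 2 of 3 pairs higher, a difference of 0.41 with 100 added. The call of Mmp9 was lost without PBS array 1 or 2 or combination array 1 or 2, with values of 1.24 to 1.95 over the 15 omissions. That of Mmp14 was lost without combination array 1 (0.33 to 0.46 over the omissions), and that of Mmp3 in 10 of 15 omissions (0.60 to 1.00).

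Of 9 genes of the elastin receptor complex and of integrins, 3 fell and none rose in the combination. Itga8, an integrin subunit of smooth muscle, was 3878, 10398 and 7608 in the combination, against 7032, 5282, 13129 and 9771 in PBS. It was lower in 3 of 3 pairs and fell by 0.40 (SE 0.04, adjusted p = 1.3e-05), and it fell by 0.23 with TNF and 0.21 with the antibody. The call with TNF was lost with arrays scaled to equal medians (-0.18), and that with the antibody too (-0.12), as well as without the variance trend or the arrays numbered 0. A second Itga8 probe set passed with TNF (-0.37) but not with the antibody (-0.22, adjusted p = 0.0957). Itgb5 fell by 0.22 (adjusted p = 0.00165) and Itgb3 by 0.39 (adjusted p = 0.0248). A dim second probe set of Itgb3 had a difference of 0.26 that did not pass. The call of Itgb3 was lost without PBS array 1 or 2 or any 1 of the 3 combination arrays (-0.43 to -0.30 over the omissions). With the array number as a random effect none of the 3 was called in the combination (adjusted p = 0.181 for Itga8, 0.0738 for Itgb5 and 0.396 for Itgb3), nor was Itga8 with TNF or the antibody.

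TGF-beta induces elastin in vascular smooth muscle cells, and its pathway gave 1 rise and 3 falls among 14 tested genes in the combination. Tgfbr1, the type I receptor, was 1751, 2031 and 2080 in the combination, against 2339, 2374, 2702 and 3007 in PBS. The groups did not overlap, and it fell by 0.45 (SE 0.05, adjusted p = 2.88e-05). The ligands Tgfb2 and Tgfb3 fell by 0.28 (adjusted p = 0.00108) and 0.49 (adjusted p = 0.0191). The type II receptor Tgfbr2 rose by 0.27 (adjusted p = 0.0109), while its dimmer probe set had a difference of -0.09 that did not pass. Tgfb3 was lost without PBS array 2 or combination array 2 or 3 (-0.64 to -0.36 over the omissions), and Tgfbr2 without array 1 of PBS or of the combination (0.21 to 0.34). With the array number as a random effect Tgfbr2 was not called (adjusted p = 0.0571), and the other 3 were. TNF alone lowered Tgfb3, by 0.55, a call lost in 3 of 15 single omissions. The antibody alone lowered Tgfbr1, by 0.20, and raised Smad3, a gene named after its values were seen, by 0.21 (adjusted p = 0.0477). That call of Tgfbr1 was lost in 5 of 15 single omissions and under 5 of 11 other settings, down to -0.12 with equal medians, and that of Smad3 in 13 omissions and under 6 settings. Dimmer probe sets of Tgfbr1 differed by 0.02 and -0.25 with the antibody, and neither passed (adjusted p = 0.97 and 0.425). In the combination they differed by -0.27 (adjusted p = 0.402) and -0.55 (0.0279). Dimmer probe sets of Smad3 differed by 0.32 and 0.23 with the antibody, and neither passed (adjusted p = 0.43 and 0.362).

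**Figure D4:**
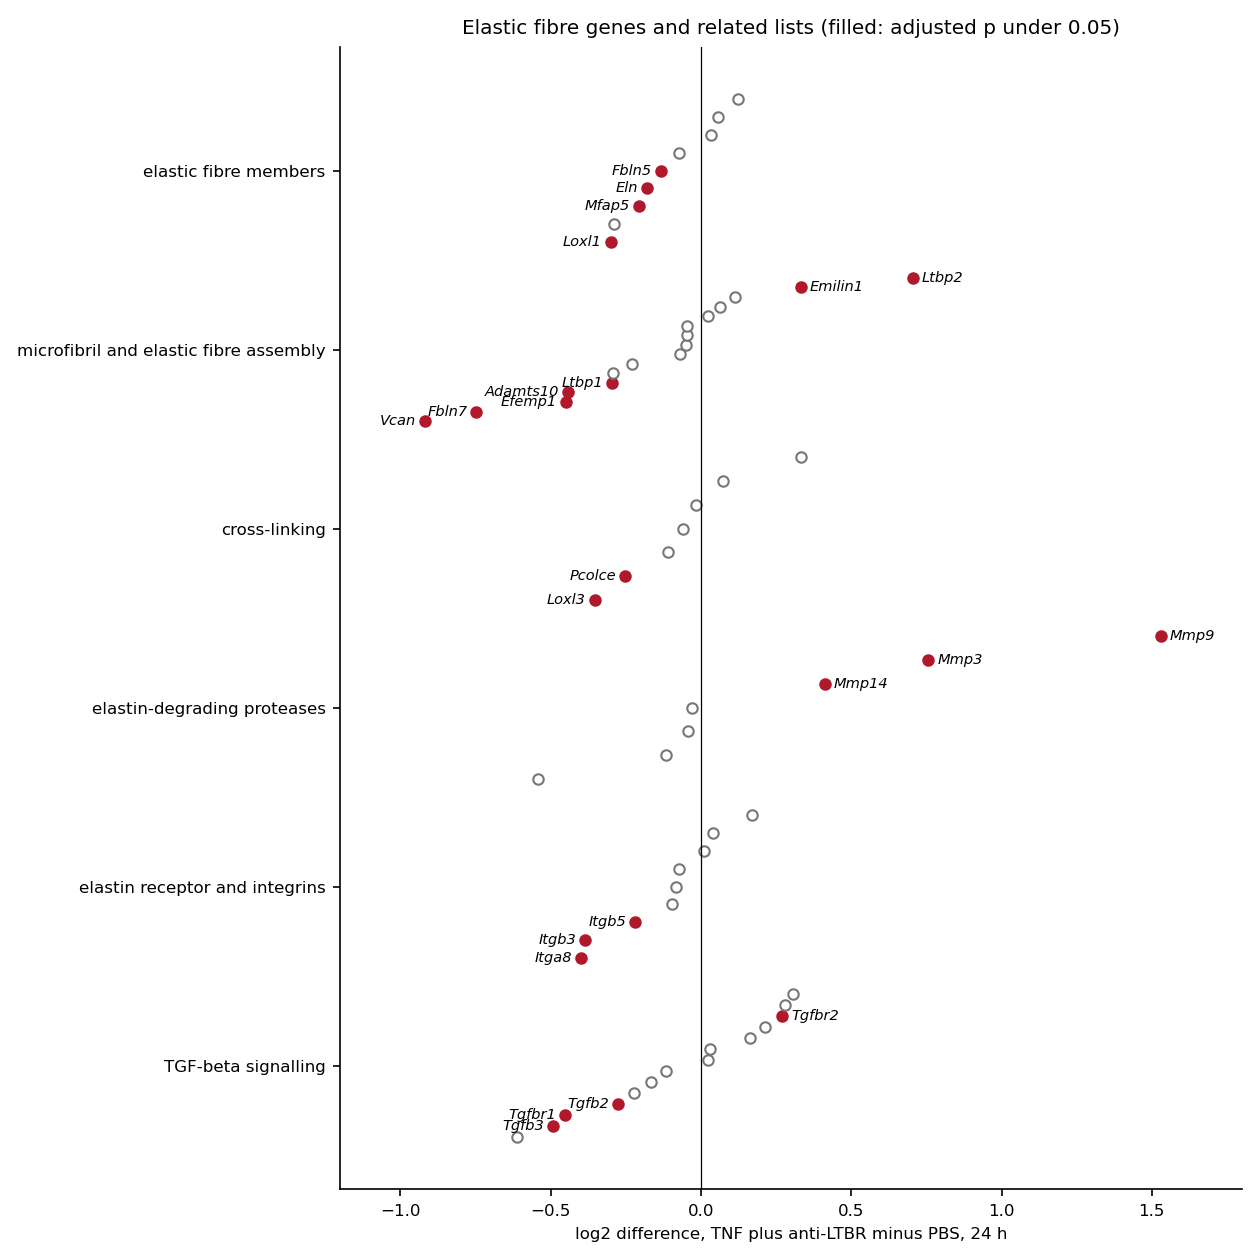
Log2 difference between TNF plus anti-LTBR and PBS at 24 h for the 9 members and for 5 lists of related genes, 1 probe set a gene, filled where the adjusted p was under 0.05 and named there. The 4 filled members lie between -0.30 and -0.13, the 3 filled proteases are all positive, and the assembly list has filled points on both sides of 0.

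The genes that varied most like Eln were sought among 12425 genes, by Pearson correlation over the 15 arrays at 24 h after the mean of each array number was removed. The 5 highest were Lhx9 (0.935), Rexo2 (0.911), Tsc22d2 (0.909), Tmsb4x (0.901) and Clec14a (0.897). All of these values share the arrays and their scaling, and they describe these 15 arrays only. Among the members, Eln correlated at 0.733 with Fbln5 and 0.684 with Lox, and at -0.683 with Mfap2. Probe sets of one gene correlated at 0.876 for Mfap5, 0.83 for Loxl1, 0.792 for the bright pair of Lox, 0.591 for Eln and 0.583 for Fbln5. Pairs that held a dim probe set of Fbln2, Fbln1 or Lox had low or negative values, with 0.0348 for Fbln2, 0.191 for Fbln1, and -0.271 and 0.0928 for the dim probe set of Lox with each bright one.

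At 2 h and 6 h each treatment had a single array, so no test was made and values past 1.5-fold were counted. Across 17 probe sets and 4 comparisons 6 values passed that size, and 4 of them were Mfap4. The bright probe sets of Eln, Fbln5, Lox, Loxl1, Fbln2 and Mfap5 stayed within it at both times. Eln 1420855_at was 14484 with TNF and 15224 with the antibody at 2 h, against 15558 in PBS, and 14582 and 15463 at 6 h, against 14353 in PBS. Loxl1 1451978_at was 6262 with TNF and 6260 with the antibody at 2 h, against 6921 in PBS, and 5655 and 6056 at 6 h, against 6912 in PBS. These Loxl1 signals were lower than PBS on all 4 treated arrays, and those of Eln on the 2 treated arrays at 2 h but on none at 6 h. The second probe sets followed this in part (log2 differences from PBS, with TNF and then with the antibody). Loxl1 1436063_at lay below PBS at 6 h, at -0.07 and -0.25, but hardly differed from it at 2 h, at 0.03 and 0.01. Eln 1420854_at lay below PBS at 2 h, at -0.22 and -0.20, and also at 6 h, at -0.21 and -0.06.

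Mfap4 lay below the array median on every early array except PBS at 6 h. It was 12.7 with TNF and 13.9 with the antibody at 2 h, against 74.9 in PBS, and 14.3 and 15.5 at 6 h, against 122.8 in PBS. The treated signals were close to the 10.2 added before the log2, so no fold is given, and at 24 h the PBS array numbered 0 was itself at 27.9. The other 2 values past 1.5-fold were of dim probe sets, Lox 1437903_at with TNF at 6 h (0.81) and Fbln2 1438375_at with the antibody at 6 h (-0.59). Over all probe sets 5.05% were higher and 3.28% lower past 1.5-fold with TNF at 2 h, and 7.28% and 2.94% at 6 h. With the antibody it was 3.27% and 2.42% at 2 h, and 4.1% and 2.1% at 6 h. With PBS alone, 4 member values passed 1.5-fold over time: Mfap4, higher at 6 h and lower at 24 h than at 2 h, Fbln2 1438375_at at 6 h (0.59) and Fbln1 1439688_at at 24 h (0.72). Over all probe sets 3.49% were higher and 2.93% lower at 6 h, and 6.85% and 2.14% at 24 h.

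**Figure D5:**
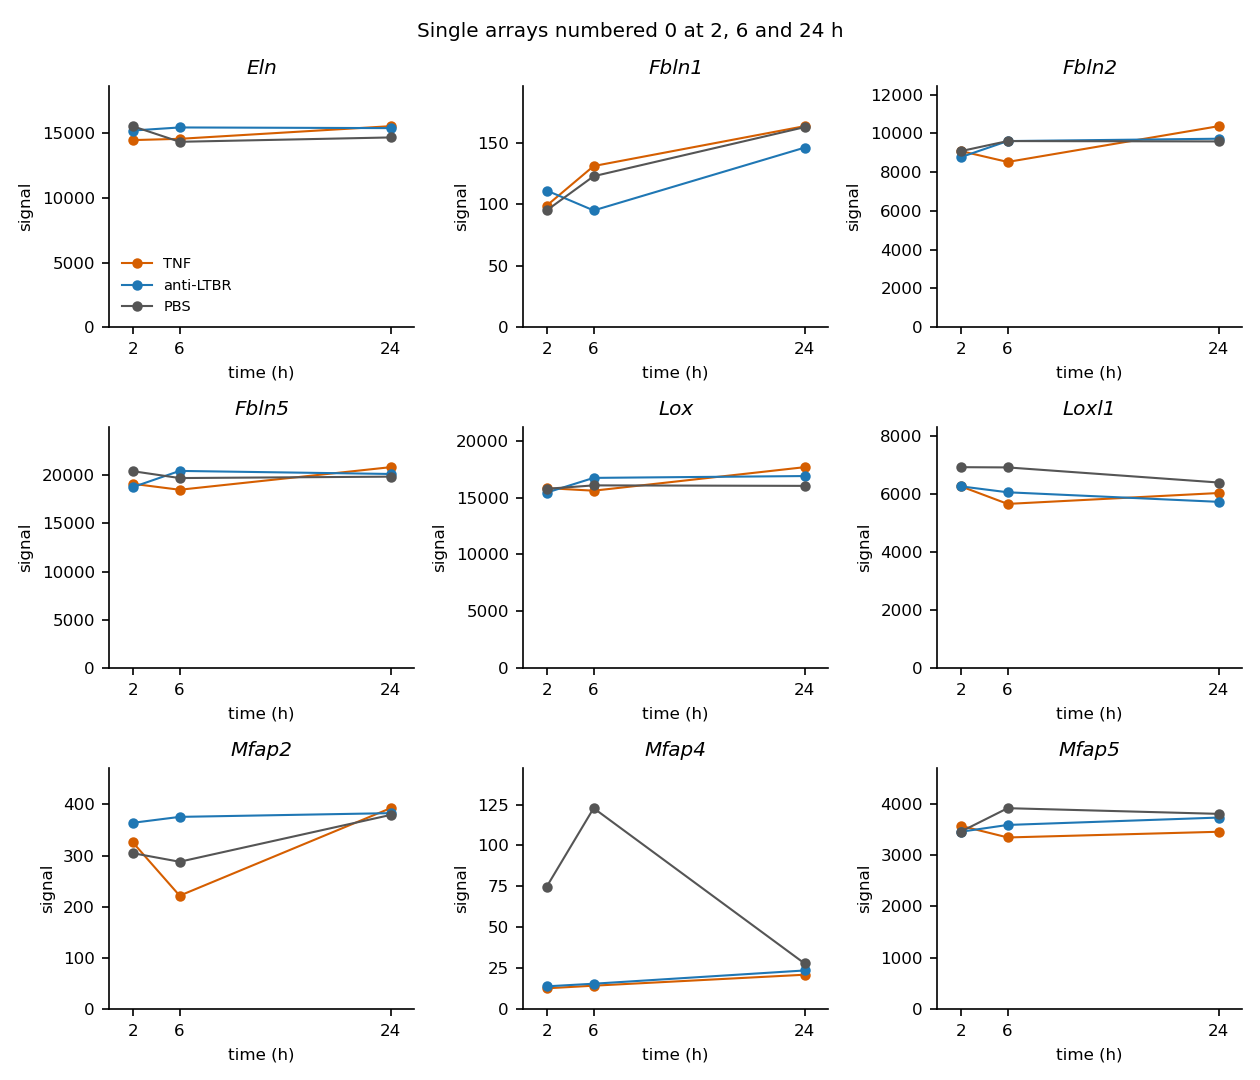
Signal of the highest-mean probe set of each of the 9 genes on the single arrays numbered 0 at 2, 6 and 24 h after TNF, anti-LTBR or PBS (time in hours on a linear axis). With 1 array a point there is no error bar. The TNF and anti-LTBR lines of Loxl1 and of Mfap4 lie below PBS at all 3 times.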

How the data were processed

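Each of the 21 samples was hybridised to 1 Affymetrix mouse array. The deposited values are linear signal intensities, made by the authors with GCOS 1.4 per the submitters' processing notes. On every array the signals average 500 once 2% of the probe sets are trimmed from each end, and the array medians were 106.8 to 139. The summarization method is not given in the sources used here, and the number of arrays limits the precision. Gene symbols came from the platform annotation, which gives 34945 probe sets 1 symbol, 932 several and 9160 none, besides 64 control probe sets. No 2 arrays held identical values.

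No normalization was added, and 10.2, near the low end of the signals at 24 h, was added before the log2. The 25110 probe sets that passed the filter on dim signals were fitted together with limma 3.58.1 in R 4.3.3, with a variance trend, the array number as a block and 8 residual degrees of freedom (11 without the block). The fit used the 15 arrays at 24 h for 7 comparisons, and p-values were adjusted by Benjamini-Hochberg over all probe sets of a comparison. The test was run on simulated data first. The labels do not say what the numbers stand for. The spread behind each p-value is that left between these samples after group and number are fitted, and may be technical. With group means removed, the correlation was 0.401 to 0.762 for the 21 pairs of same-numbered arrays and, for the 63 others, -0.536 to 0.223, so the numbers pair the arrays.

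All probe sets of the members are described, a gene by its probe set with the highest mean at 24 h. Of each of 5 lists of related genes, up to 4 called genes are named, by adjusted p in the combination. The members and lists were chosen with earlier results of these data known. Promoters are from RefSeq. The alternatives were the block left out or made random, the variance trend, 2 other scalings, the pseudocount, the filter, 1 probe set a gene, and arrays left out.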

Additional observations from a re-analysis of the deposited data

How the results depend on the processing

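The 4 falls of member probe sets in TNF plus anti-LTBR against PBS became 0 without the array number as a block, 2 with the number as a random effect, 1 without the variance trend, 1 with arrays scaled to equal medians and 2 with no filter on dim signals, and 1 to 5 when single arrays were left out (1 without PBS array 2 or combination array 2, 2 without combination array 1). The causes were not tested. With quantile normalization 3 member probe sets were called, but Fbln5 and Eln were lost. With a pseudocount of 1 or 100, a stricter filter, 1 probe set a gene or no arrays numbered 0, all 4 were called. Against TNF and against the antibody the combination gave 0 to 1 called member with single arrays left out (1 without TNF array 2 in both, and 1 without combination array 3 against TNF), and 0 under the other settings, and no member value reversed its sign while called. For PBS over time the count of values past 1.5-fold was 4, with 2 under equal medians and 0 with a pseudocount of 100. Over all probe sets the fit without the block called 480 in the combination, 63 with TNF and 36 with the antibody, against 3778, 1031 and 797 with it. Leaving out the arrays numbered 0 gave 413 calls with the antibody and 22 for the interaction, where the whole fit gave 797 and 6. Of the related genes named in the combination, Ltbp2 kept its call under every setting (0.58 to 0.86 over single omissions), and none of the others kept it without the block, where Ltbp1 had a difference of -0.02, Efemp1 of -0.06, Itgb5 of -0.12 and Pcolce of -0.16.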

Other observations

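Mmp12, macrophage elastase, was too dim to be tested and lay below the array median on every array at 24 h. Its signals were 25.3, 35.4 and 73.6 with TNF plus anti-LTBR, against 10.2, 12.6, 3.3 and 11.1 in PBS, so that every combination array was above every PBS array. With TNF alone they were 17.1, 6.3, 29.4 and 11.1, and with the antibody alone 7.3, 6.8, 3.3 and 10.3. The gene was singled out after its values were seen, and no fold is given for signals this low.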
